A study of Mus musculus with 6 samples.

Results

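The 10 genes described here belong to the Notch pathway: the receptors Notch1, Notch2 and Notch3, the ligands Jag1, Jag2 and Dll1, and the target genes Hes1, Hey1, Heyl and Nrarp. They were chosen by symbol, and the array probes whose transcript accession belongs to one of these symbols were taken. These were 12 of 55681 gene probes on the array. All 10 genes had a probe that passed the signal filter and were tested, among 22501 genes tested of 36799 on the array, and 11 of the 12 probes passed.

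RNA came from tumor cells of MMTV-PyMT mice, in which the mouse mammary tumor virus promoter drives the polyoma middle T oncogene in mammary epithelium. Late carcinoma cells from RANK-/- donors, which lack the receptor activator of NF-kB, or from RANK+/+ donors, both listed as strain C57BL/6 and both carrying the oncogene, had been grown as orthotopic grafts in C57BL/6 hosts without further treatment. The methods give hosts of orthotopic grafts as females aged 6 to 10 weeks at implantation. Live cells without the leukocyte antigen CD45 were then sorted from the grown tumors. The hosts have their own RANK, so fibroblasts, endothelial cells and mural cells that the host contributes to this fraction are not expected to carry the deletion, and neither the age of the donors nor the number of tumors behind each RNA is given in the sources used here. Each of 3 pairs of RNA, 1 RANK-/- and 1 RANK+/+, was hybridized together on 2 two-color arrays, A and B, which are technical replicates. The RANK-/- RNA was labeled with Cy5 in pair 1 and with Cy3 in pairs 2 and 3, on both arrays of each pair, although the methods describe dye swaps. Dye and the difference of pair 1 from the other pairs therefore cannot be told apart.

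Arrays A and B of a pair agreed closely, with r of 0.973 to 0.983 across all log2 ratios. The 3 pairs did not resemble each other, with r of -0.28 between pairs 1 and 2, 0.18 between pairs 1 and 3 and -0.08 between pairs 2 and 3. Tnfrsf11a, the gene of RANK, went against its label: its log2 ratio of the RANK-/- over the RANK+/+ channel was 2.03, 1.15 and 1.76 in the 3 pairs. Where its probe lies relative to the deleted part is not given in the sources used here, so this checks the labels only if the probe lies within it. Every direction below is for the channel labeled RANK-/- against the channel labeled RANK+/+.

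Notch receptors are carried on the surface of one cell and bind ligands of the Jagged and Delta-like families on a neighboring cell. Binding leads to cleavage of the receptor, first by an ADAM protease and then by gamma-secretase, and the freed intracellular domain enters the nucleus, where it joins the DNA-binding protein RBPJ and Mastermind coactivators. Genes of the Hes and Hey families, which encode repressors, and Nrarp, which encodes a feedback inhibitor, are among the best known targets. In the mammary gland Notch signaling favors luminal over basal fate, and in blood vessels Notch3 and Heyl are typical of mural cells.

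The ligand genes Jag1 and Jag2 were lower under the RANK-/- label in every pair, and they were the only members to have the same direction in all 3 pairs. The bases just upstream of their start sites are shown because these genes moved together and yet have start regions of different composition. Both come from RefSeq (GRCm38.p6), read 5′ to 3′ on the minus strand, which is that of the gene, and ending at the base before the annotated start, and capitals mark each CG dinucleotide.
Jag1, chr2:137116521-137116770: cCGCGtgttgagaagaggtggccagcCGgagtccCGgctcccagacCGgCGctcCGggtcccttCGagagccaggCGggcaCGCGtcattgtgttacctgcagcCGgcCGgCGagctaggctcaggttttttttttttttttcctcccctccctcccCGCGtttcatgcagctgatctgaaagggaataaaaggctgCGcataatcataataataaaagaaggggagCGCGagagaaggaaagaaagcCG
Jag2, chr12:112929496-112929745: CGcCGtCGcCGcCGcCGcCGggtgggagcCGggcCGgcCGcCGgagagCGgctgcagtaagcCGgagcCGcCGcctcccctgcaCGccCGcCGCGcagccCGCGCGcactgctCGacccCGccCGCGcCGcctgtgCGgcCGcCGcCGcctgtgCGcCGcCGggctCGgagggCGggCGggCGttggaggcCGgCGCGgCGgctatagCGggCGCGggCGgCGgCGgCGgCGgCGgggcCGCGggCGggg
The 250 bases upstream of Jag1 held 20 CG dinucleotides and were 57.2% G or C. Those upstream of Jag2 held 54 and were 87.2% G or C, and 0.0152% of 32851 windows in the same table had as many or more, against 17.9% for the count of Jag1. The core sequence bound by RBPJ, GTGGGAA on either strand, was searched in windows of 250 bases before to 50 after the start. Windows were found for 7 of the 10 members, Notch1, Notch2, Notch3, Jag1, Jag2, Dll1 and Nrarp, and 0 of these 7 held the sequence, which 7.25% of 27025 genes with a window and 7 of 50 other Notch pathway genes with a window did.

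Jag1 encodes a ligand that is active in many tissues, including mammary epithelium and blood vessels. Its level, as the log2 of the normalized channel intensity, was 8.18, 8.20 and 8.51 in the RANK-/- RNAs of pairs 1, 2 and 3 and 9.36, 8.98 and 9.27 in the RANK+/+ RNAs. The highest RANK-/- value lay below the lowest RANK+/+ value, so the groups did not overlap. The log2 ratio was -1.18, -0.79 and -0.76 in the 3 pairs, with a mean of -0.91 ± 0.23 (SD, n = 3 pairs), which is 1.88-fold lower. The drop was of similar size in pairs 2 and 3 and larger in pair 1. Among all genes tested, 0.133%, or 30 genes, were lower in every pair by at least the smallest of the 3 drops of Jag1. In limma's moderated test across all genes the SE was 0.16 and the p-value 0.00397, and with Benjamini-Hochberg adjustment over 22501 genes it was 1.00, so the difference did not pass the threshold of 0.05.

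Jag2 encodes the second Jagged ligand. Its log2 channel level was 6.93, 7.02 and 7.52 in the RANK-/- RNAs and 8.32, 7.86 and 7.67 in the RANK+/+ RNAs. These groups did not overlap either, but the gap between them in pair 3 was narrow. The log2 ratio was -1.39, -0.84 and -0.14, with a mean of -0.79 ± 0.63 (SD, n = 3 pairs), or 1.73-fold lower, and 1.05% of all genes had a mean at least as low. The limma p-value was 0.0441 and the adjusted p 1.00. The size of this difference came mostly from pairs 1 and 2: without pair 1 the mean was -0.49, and without pair 3 it was -1.11. For Jag1 the mean without pair 1 was -0.78.

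Dll1, the Delta-like ligand of the set, differed in 1 pair. Its log2 channel level was 8.32, 10.18 and 8.37 in the RANK-/- RNAs and 8.25, 8.999 and 8.46 in the RANK+/+ RNAs, so that both RNAs of pair 2 were the highest of their label. The log2 ratio was 0.07, 1.18 and -0.09, with a mean of 0.39 ± 0.69 (SD, n = 3 pairs) and an adjusted p of 1.00 by limma. Without pair 2 the mean log2 ratio of Dll1 was -0.01.

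**Figure D1:**
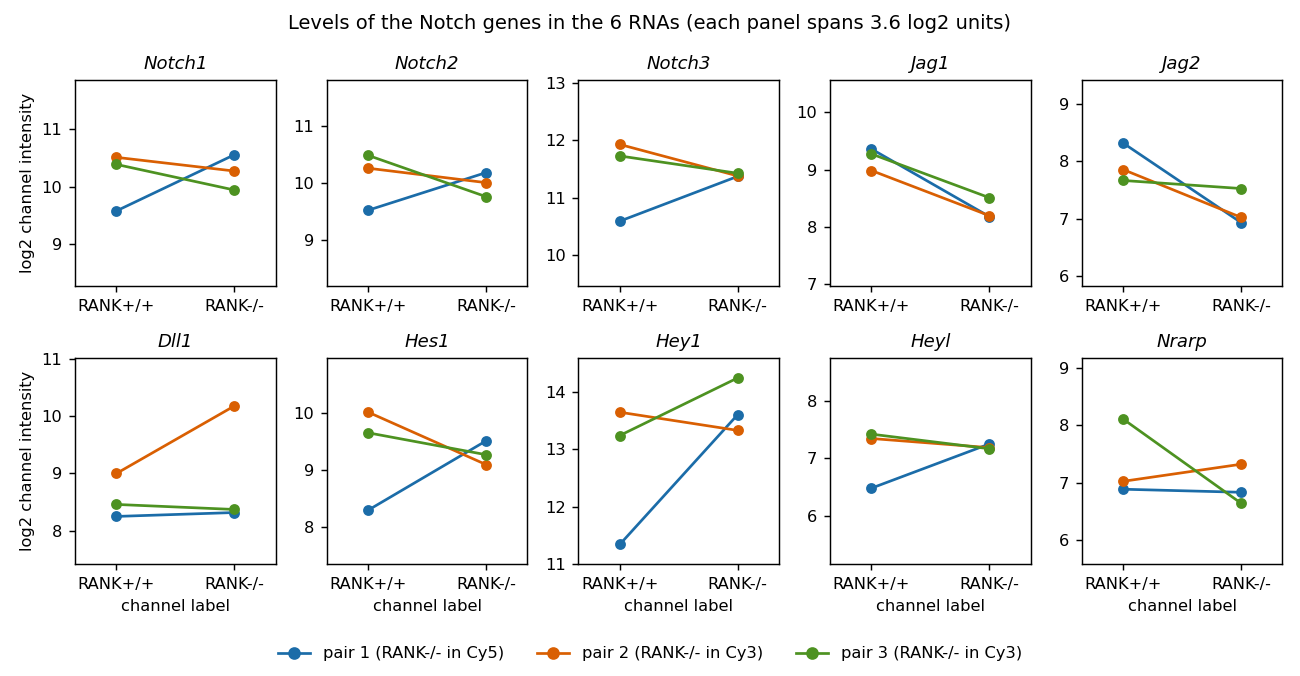
Log2 channel intensity of each of the 10 Notch genes in the 3 RANK+/+ and 3 RANK-/- RNAs, arrays A and B averaged, with lines joining the RNAs hybridized together. Jag1 and Jag2 are the 2 genes whose groups do not overlap, and in 7 genes the lowest point is the RANK+/+ RNA of pair 1.

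The 3 receptor genes shared 1 pattern, higher in the RANK-/- channel in pair 1 and lower in pairs 2 and 3. Notch1 had log2 ratios of 0.98, -0.24 and -0.45 (mean 0.10 ± 0.77, SD, n = 3 pairs). Notch2 had 0.66, -0.25 and -0.72 (mean -0.11 ± 0.70). Notch3 had 0.78, -0.55 and -0.30 (mean -0.02 ± 0.71). The spread between pairs exceeded each mean, and the adjusted p of each was 1.00 by limma.

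In levels, the RANK+/+ RNA of pair 1 held only part of the receptor pattern. Without pair 1 the mean log2 ratios of Notch1, Notch2 and Notch3 were -0.34, -0.49 and -0.43. Notch1 was highest in the RANK-/- RNA of pair 1, and Notch2 in the RANK+/+ RNA of pair 3. Notch3 was nearly constant in the RANK-/- RNAs, at 11.37, 11.38 and 11.43, and was 10.59, 11.93 and 11.73 in the RANK+/+ RNAs, so its lowest and highest values both carried the RANK+/+ label. Notch1 was 10.56, 10.27 and 9.94 in the RANK-/- RNAs and 9.58, 10.51 and 10.39 in the RANK+/+ RNAs. Notch2 was 10.18, 10.01 and 9.76 against 9.52, 10.26 and 10.48.
For each receptor the RANK+/+ RNA of pair 1 was the lowest of the 6, and the groups overlapped.

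Notch1 and Notch2 were each measured by a further probe, which did not show this pattern. The dimmer Notch1 probe, which was above background on every array, had log2 ratios of -0.29, 0.01 and 0.22, the opposite sign of the brighter probe in each pair. The dimmer Notch2 probe exceeded background clearly in 3 of 6 RANK-/- channels and in 2 of 6 RANK+/+ channels and did not pass the filter, with log2 ratios of -0.17, 0.19 and -0.06. The values of both receptors therefore depend on which probe stands for the gene.

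Of the target genes, Hes1 and Heyl followed the receptors. Hes1, a repressor of differentiation genes, had log2 ratios of 1.21, -0.92 and -0.38 (mean -0.03 ± 1.11, SD, n = 3 pairs), from levels of 9.51, 9.10 and 9.27 in the RANK-/- RNAs and 8.30, 10.01 and 9.65 in the RANK+/+ RNAs. Its RANK-/- values lay inside the range of its RANK+/+ values. Heyl had log2 ratios of 0.77, -0.16 and -0.25 (mean 0.12 ± 0.57), from levels of 7.25, 7.19 and 7.17 against 6.48, 7.35 and 7.42. It was the member with the largest difference between arrays A and B, a technical SD of 0.16 on the log2 scale, against a median of 0.06 for the members and for all genes. Neither gene passed the threshold (adjusted p 1.00 by limma).

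Hey1, which encodes a repressor related to Heyl, was the member with the largest mean difference and the largest spread. Its log2 channel level was 13.61, 13.33 and 14.25 in the RANK-/- RNAs and 11.34, 13.65 and 13.24 in the RANK+/+ RNAs. Of these, the RANK+/+ RNA of pair 1 stood apart at the low end, and the groups overlapped. The log2 ratio was 2.27, -0.32 and 1.01, with a mean of 0.99 ± 1.29 (SD, n = 3 pairs), a 1.98-fold difference whose limma p-value was 0.129 and adjusted p 1.00. Without pair 1 the mean fell to 0.34.

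Nrarp, the feedback inhibitor, differed in pair 3. Its log2 channel level was 6.83, 7.32 and 6.64 in the RANK-/- RNAs and 6.88, 7.02 and 8.11 in the RANK+/+ RNAs, where the RNA of pair 3 was the highest of the 6. The log2 ratio was -0.05, 0.30 and -1.47 (mean -0.41 ± 0.94, SD, n = 3 pairs; adjusted p 1.00 by limma), and without pair 3 it was 0.12.

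**Figure D2:**
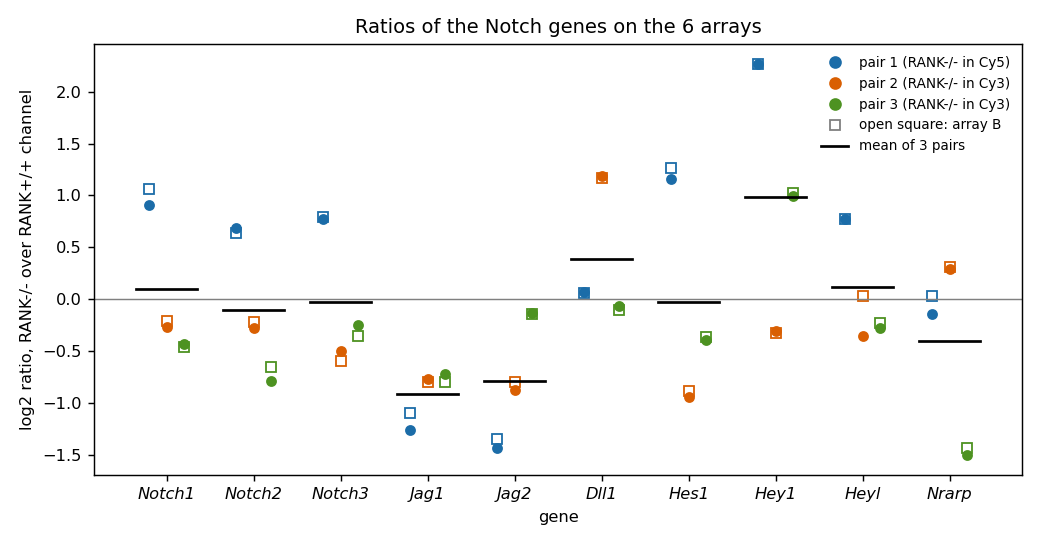
Log2 ratio of the RANK-/- over the RANK+/+ channel for each of the 10 genes on each array, colored by pair, with array A as filled circles, array B as open squares and the mean of the 3 pairs as a black bar. Arrays of a pair lie close together, the pairs lie apart, and Jag1 and Jag2 have all 6 arrays below 0.

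Counted together, 0 of the 10 genes passed the adjusted threshold, as did 0% of all genes tested. At an unadjusted p under 0.05, 2 members were lower, against 1.22% of all genes, and 0 were higher, against 1.66%. In all 3 pairs, 2 members were lower (background 9.65%), 0 were higher (9.95%) and 8 had mixed signs (80.4%). The same 2 genes were those with groups that did not overlap, which was found for 3.76% of all genes in the lower direction, and 0 members were higher without overlap (3.69%). A sign-flip test over 3 pairs cannot give a two-sided p below 0.25.

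By the probe that stands for each gene, the members varied between pairs more than most genes. The median SD between pairs was 0.71 for the members and 0.33 for all genes on the log2 scale, and 9 of 10 members lay above the median gene, with Jag1 the exception. The dimmer probes of Notch1 and Notch2 had an SD of 0.26 and 0.18, below that of the median gene. A difference of at least 2-fold in any pair was found for 6 members, against 15% of all genes. In pair 1 it was found for 4, Jag1, Jag2, Hes1 and Hey1 (6.5% of all genes), in pair 2 for 1, Dll1 (4.82%), and in pair 3 for 2, Hey1 and Nrarp (7.92%).

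Values of dye and of a single RNA moved with this spread. First, 5 of the 10 members, Notch1, Notch2, Notch3, Hes1 and Heyl, were higher in the Cy5 channel in all 3 pairs, as were 15.3% of all genes, and 0 were higher in Cy3 in all 3 pairs (13.5%). This holds for the mean of arrays A and B and the probe that stands for the gene. On array B of pair 2 alone the log2 ratio of Heyl was 0.03, and the dimmer Notch1 probe was higher in Cy3 in all 3 pairs. With a dye term in the limma fit, the Cy5 over Cy3 difference of these 5 genes was 0.49 to 0.93 on the log2 scale, with adjusted p-values of 0.787 to 0.820, and 0 of all genes passed the threshold for dye, with 1379 at an unadjusted p under 0.05. In that fit the ratio of Jag1 was -0.98, that of Jag2 -0.94 and that of Hey1 1.31, each with an adjusted p of 1.00. Second, the RANK+/+ RNA of pair 1, the only RANK+/+ RNA labeled with Cy3, was the lowest of the 6 for 7 members, the 3 receptors, Dll1, Hes1, Hey1 and Heyl, where it was the lowest for 21.2% of all genes. It was the highest for 2, Jag1 and Jag2 (15.9% of all genes). Whether dye or this RNA has a part in the values of the members was not tested.

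The levels of several members moved together over the 6 RNAs, which is given as a description since all RNAs share arrays in pairs and labeling. Notch3 and Hes1 had the closest profiles, with Pearson r of 0.97, followed by Notch3 and Heyl (0.95) and Hes1 and Heyl (0.93). Without the RANK+/+ RNA of pair 1, a choice made after seeing the data, these were over 5 RNAs 0.89, 0.79 and 0.78. Jag1 and Jag2 had r of 0.91 over 6 RNAs and 0.88 over those 5. Among 8385 other genes with a symbol and at least median spread, the closest profile to that of Jag1 was Prodh (r of 0.995), to Jag2 Plch2 (0.977), to Notch3 Cltc (0.997) and to Hey1 Bbs12 (0.997). For the other members these were Pigp for Notch1 (0.998), Slain1 for Notch2 (0.993), Cisd3 for Dll1 (0.991), Kcna4 for Hes1 (0.982), Xrcc3 for Heyl (0.993) and Ska2 for Nrarp (0.995). With 6 points an r over 0.9 was not unique to 1 gene: between 25 and 242 of those 8385 genes reached it for each of the 10 members.

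The rest of the pathway was described through lists of 62 further genes, of which 60 were matched to the array and 54 were tested. Of these 54, 0 passed the adjusted threshold, as did 0% of all genes. At an unadjusted p under 0.05 there were 0, against 1.66% higher and 1.22% lower of all genes. In all 3 pairs, 2 were higher (9.95% of all genes) and 2 lower (9.65%). The median mean log2 ratio of the 54 was 0.02 and their median SD 0.37, near the values of all genes (0.00 and 0.33). None had the same sign in all pairs with a mean beyond 0.5 in size.

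Among the 5 other tested receptors and ligands, the mean log2 ratio lay between -0.06 and 0.10. Notch4, the receptor best known from endothelium and from mammary tumors with viral insertions, had ratios of 0.35, -0.66 and 0.30, and Dll4, the endothelial ligand, -0.03, -0.15 and 0.32. Of 9 genes that modify the receptors, 1 was lower in every pair (9.65% of all genes). This was Lfng, which adds sugars that favor binding of Delta-like over Jagged ligands, at -0.08, -0.52 and -0.80 (mean -0.47). Its groups did not overlap, as was found for 3.76% of all genes in the lower direction. Lfng was picked out after its values were seen, and its limma p-value was 0.0700. The 7 tested genes of receptor cleavage, including the ADAM proteases and the gamma-secretase subunits, all had mixed signs (80.4% of all genes). So did the 14 genes of the nuclear complex, with Rbpj at -0.17, -0.17 and 0.35. Among the 15 genes of endocytosis and turnover, Dtx1, a Notch-regulated ubiquitin ligase, was picked out after its values were seen, as the gene of this list whose ratios differed most between pairs, 1.34, -1.75 and 0.67. Hes2, Hes3, Hes5 and Hey2 did not pass the signal filter.

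**Figure D3:**
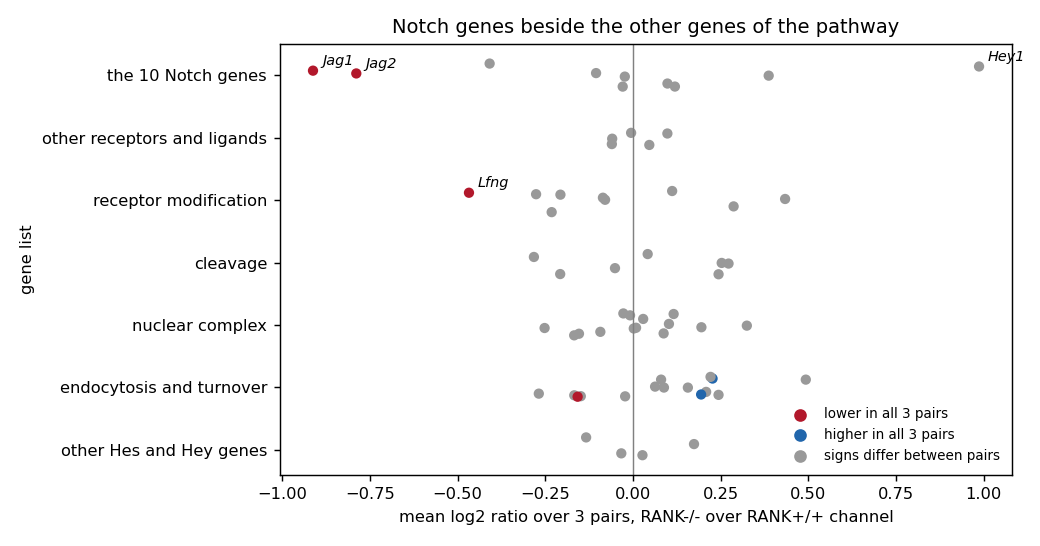
Mean log2 ratio of the RANK-/- over the RANK+/+ channel over 3 pairs for each tested gene of the Notch pathway, by list, where each point is a gene and its color gives whether the sign was the same in all pairs. Jag1, Jag2 and Hey1 lie farthest from 0 at -0.91, -0.79 and 0.99, and the other lists lie within 0.5 of it.

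Sorted CD45- cells can hold several cell types that use Notch, and in such a mixture fewer cells of a type and less RNA per cell cannot be told apart. Lists of marker genes were therefore set beside the members. All 8 luminal markers were well above background on all 6 arrays in both channels, and their median log2 ratio was 0.56, -0.61 and 0.87 in the 3 pairs, with 5 of 8 higher in pairs 1 and 3 and lower in pair 2, the signs of Hey1 (18.8% of all genes had these signs). Of the other luminal markers, Krt19 had ratios of -1.22, -3.95 and 0.03 and Krt8 of -0.41, -0.55 and 2.08. Cdh1 had 0.27, -0.47 and -0.15. The summed luminal signal was 123181 to 427347 in the RANK-/- and 159136 to 261015 in the RANK+/+ RNAs, with 52.7% to 65.8% of it from Krt18. Mural markers had medians of 0.90, -0.63 and 0.47, and 7 of 9 had the same signs as Hey1. The RANK+/+ RNA of pair 1 was the lowest of the 6 for 8 of the 9 mural genes, as for Notch1, Notch2, Notch3, Dll1, Hes1, Hey1 and Heyl. It was also the lowest for 4 of 8 basal, 3 of 8 luminal, 3 of 12 endothelial, 0 of 9 fibroblast and 0 of 9 leukocyte markers. In pair 3, Notch3 at -0.30 and Heyl at -0.25 had the opposite sign to the mural median. Pdgfrb of the mural list was 7.95 in the RANK+/+ RNA of pair 1 and 8.96 to 10.04 in the other 5 RNAs. The summed mural signal ranged from 18933 to 32515 in the RANK-/- and from 15724 to 29870 in the RANK+/+ RNAs. Of this signal, 80.9% to 91.7% came from the probe of Mcam. Its ratios of 1.06, -0.63 and -0.27 had other signs than the 7 mural genes with the signs of Hey1. Without Mcam the sums were 2452 to 4267 against 1453 to 4284, with the lowest again in the RANK+/+ RNA of pair 1. Endothelial markers had medians of 0.01, -0.11 and 0.53, with 1 of 12, Cldn5, higher in all pairs at 0.72, 0.14 and 0.81, and summed signals of 5807 to 7119 against 5153 to 7426. The part of these cells in the values of the members was not tested.

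Jag1 and Jag2 were lower in every pair, which was also the case for 2 genes of the marker lists, Lgr5 of the basal list at -0.07, -0.89 and -0.14 and S100a9 of the leukocyte list at -4.12, -0.04 and -0.25. No list had a median below 0 in all 3 pairs. The basal markers had medians of 0.04, -0.06 and -0.07 and summed signals of 24411 to 27624 in the RANK-/- and 28576 to 43268 in the RANK+/+ RNAs, which did not overlap. Without Krt5, the brightest gene of this list, the sums were 17451 to 22515 against 21672 to 23723 and overlapped. Basal genes ran in different directions: Krt5 had ratios of -1.41, -2.13 and 0.33 and Krt14 of -1.81, 0.12 and -0.44, Acta2 of 0.89, 0.02 and -0.01 and Trp63 of 0.28, -0.02 and 0.17, while Oxtr was higher in all pairs at 1.84, 0.74 and 0.08. Apart from Oxtr, these were picked out after their values were seen. Fibroblast markers had medians of 0.00, 0.86 and 1.94. Of 9, 4 were higher in all 3 pairs (9.95% of all genes), Col1a1, Col1a2, Dpt and Pdgfra, with means of 0.97, 1.28, 1.02 and 0.54. The other 5 had mixed signs. Dcn, Lum, Col3a1 and Fap had -0.71, -0.23, -0.08 and -0.0016 in pair 1, and Thy1 had -0.29 in pair 2. The summed fibroblast signals were 145397 to 234556 against 51517 to 148351 and overlapped. Without Col1a2, the brightest gene, they were 90349 to 140123 against 33311 to 103879 and overlapped too. Leukocyte markers, which the sort should have removed, had medians of -0.93, 0.20 and 0.14. For 7 of 9 the RANK+/+ RNA of pair 1 was the highest of the 6, with S100a9 at 11.97 there and 6.23 to 7.85 in the others. The summed leukocyte signal was 3295 to 5350 in the RANK-/- and 2993 to 28002 in the RANK+/+ RNAs, and 2045 to 3243 against 1647 to 8058 without its brightest gene, S100a8; Cd79a was above background in neither channel of any of the 6 arrays, and Ptprc, the gene of CD45, in 5 RANK-/- and 4 RANK+/+ channels. Whether any of these shifts has a part in the lower Jag1 and Jag2 was not tested.

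**Figure D4:**
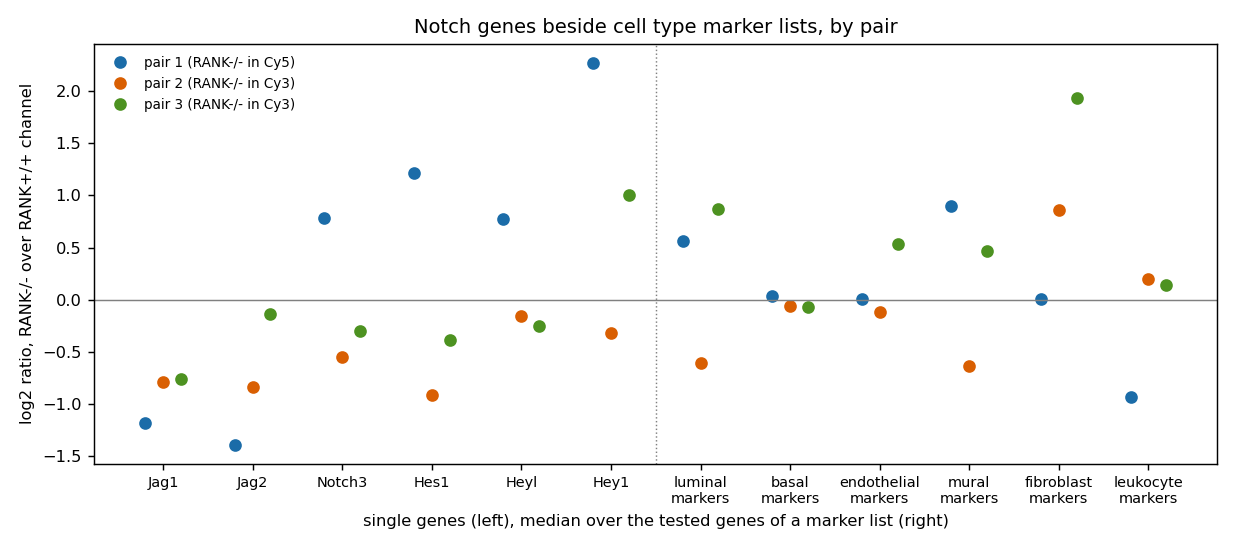
Log2 ratio of the RANK-/- over the RANK+/+ channel in each pair for 6 of the Notch genes (left) and as the median of each marker list (right). Jag1 and Jag2 lie below 0 in every pair, while the luminal and mural medians lie above 0 in pairs 1 and 3 and below it in pair 2, as Hey1 does.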

How the data were processed

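RNA levels were measured on 6 two-color Agilent arrays on 1 slide with 1 scan date. The deposited scanner files, made with Agilent Feature Extraction 10.7.3.1 per the labels, gave the median intensity of spot and local background in each channel, processed intensity and a log10 ratio of Cy5 over Cy3, which served to check dye direction. The authors' table of normalized log2 ratios was an alternative, and its direction, RANK-/- over RANK+/+, was found by comparison with the scanner ratios (r of 0.82 to 0.86).

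Median signals were background-corrected by normexp (offset 50), normalized by loess within arrays, with control and outlier spots at weight 0, and by Aquantile between arrays, in limma 3.58.1 under R 4.3.3 with the package data.table, version 1.17.8. Arrays A and B were averaged, giving 3 pair ratios. A probe was kept where, for either label, both arrays of 2 or more pairs gave a signal that Feature Extraction called well above background, which left 30230 of 55681 probes (54.3%), and the probe of highest mean intensity stood for a gene. A moderated linear model tested the mean ratio with Benjamini-Hochberg adjustment over 22501 genes at 0.05. The study's rank-based test was not run. The series calls the samples biological replicates without saying that they are separate tumors. The p-values therefore set the mean ratio against the spread between these 3 pairs only, and this number of pairs limits the precision. The code of the fit was run on simulated data with independent normal noise and added shifts. The simulated data held no dye effect, so the run does not check the values given here.

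Gene names came from RefSeq (GRCm38.p6) by accession, for 28026 probes. The array annotation names another build, so no array coordinates are given. The members and gene lists were chosen with earlier results of these data known. Genes outside the members were named where they had the same sign in all pairs and a mean log2 ratio beyond 0.5, or passed the threshold. For each member, 1 gene with the closest profile was sought, and any other gene named outside the members was chosen after its values were seen. The replicate numbers mark RNAs hybridized on the same arrays. Whether the 2 RNAs of a pair shared a host, graft day or sort is not given in the sources used here. Deviations of the 2 channels of a pair correlated with r of -0.03, -0.22 and -0.04, which cannot settle it.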

Additional observations from a re-analysis of the deposited data

How the results depend on the processing

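Over 19 alternatives, the directions of Jag1, Jag2 and Hey1 did not change, with mean log2 ratios from -1.09 to -0.78, -1.23 to -0.49 and 0.34 to 1.64. Several of the alternatives change only the test or the probe filter and return the same mean, so they could not turn a direction. With all 6 arrays of Jag1 and Jag2 below 0, subsets of arrays or pairs could not turn these 2 genes either. With the 6 arrays entered as 6 separate replicates, which counts technical repeats as independent, limma called 298 genes and 1 member, Jag1 (-0.91, adjusted p 0.0134, and 0.0134 to 1.00 over its alternatives), and a fit on 6 arrays with a random pair effect called 13 genes and no member. In the other settings limma called 0 genes, with 460 to 1876 genes at an unadjusted p under 0.05 (460 without pair 3 and 1876 without pair 2). The other pathway genes had 0 calls throughout. With no replicate block, treating the channels as 3 against 3 RNAs, 0 genes were called. The mean of Jag1 is -0.91 there by construction, since the channel levels are built from the same ratios. Centring on the median without loess moved the median of all genes to -0.14 and turned Notch1 to -0.10 and Heyl to -0.0031. A dye term turned Notch2 to 0.086, Notch3 to 0.18 and Hes1 to 0.28. Arrays A alone turned Notch3 to 0.0072, arrays B alone turned Hes1 to 0.0025, and Agilent's processed signals turned Hes1 to 0.038. Leaving out 1 pair at a time gave 0 calls and ranges of -0.34 to 0.37 for Notch1, -0.49 to 0.20 for Notch2, -0.43 to 0.24 for Notch3, -0.99 to -0.78 for Jag1, -1.11 to -0.49 for Jag2, -0.0098 to 0.62 for Dll1, -0.65 to 0.41 for Hes1, 0.34 to 1.64 for Hey1, -0.21 to 0.31 for Heyl and -0.76 to 0.12 for Nrarp. The cause of these changes was not tested.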
